A study of Mus musculus with 8 samples.

Results

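The genes described here are 3 fibroblast growth factor (FGF) receptors, Fgfr1, Fgfr2 and Fgfr3, and 7 genes that act in or respond to the signalling below them, Spry1, Spry2, Spry4, Dusp6, Etv4, Etv5 and Spred1. They were chosen by name, and all 10 were found among the 55422 features counted. The data are single-cell RNA-seq libraries of chimaeric mouse embryos, in which Tet-TKO embryonic stem cells, lacking all TET enzymes, had been injected into wild-type blastocysts. Tet-TKO cells gave 4 libraries at E8.5 and WT host cells gave 2, while each genotype had a single library at E7.5.

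The Tet-TKO cells came from 1 stem cell line on a C57BL/6J-129Sv background and carried histone H2B fused to tdTomato under the ubiquitous CAG promoter. The WT host cells were C57BL/6J and negative for tdTomato. Embryos were pooled before sorting, every embryo was a chimaera, and the 2 genotypes developed side by side in it. Strain and genotype cannot be told apart in any comparison of the 2. Replicates are libraries, and nothing in the labels says that they came from separate pools, so p-values measure the spread between libraries only.

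After filtering, 1008 to 9545 cells were kept per library, with a median of 12178 to 68931 unique molecular identifiers (UMIs, counts of distinct RNA molecules) per cell. tdTomato UMIs were found in 60.8% to 87.3% of the cells of Tet-TKO libraries and in 0.532% to 0.841% of those of WT host libraries. Reads of Tet1, Tet2 and Tet3 remained in every Tet-TKO library. At E8.5 Tet1 was at 9.92 to 20.9 CPM (a count of UMIs scaled to the same library total in every sample) against 20.4 and 22.6 CPM in WT host libraries. Tet2 was at 5.55 to 10.5 CPM against 4.63 and 4.67 CPM, and Tet3 at 22.5 to 37.5 CPM against 23.1 and 23.2 CPM. A 3′ tag outside the deleted part of a gene does not check the deletion. Tet-TKO libraries 1 and 2 were alike, as were libraries 3 and 4, with a chi-square per degree of freedom of 15.5 and 17.8, against 175.6 to 189.6 between the pairs and 140.5 between the 2 WT host libraries at E8.5. Any 2 libraries shared at most 29 cell barcodes.

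In the GRCm38 annotation Fgfr1 lies at chr8:25513654-25575718, Fgfr2 at chr7:130162451-133123350, Fgfr3 at chr5:33721674-33737068, Spry1 at chr3:37639947-37644598 and Spry2 at chr14:105891947-105896819. Dusp6 lies at chr10:99263231-99267489, Etv4 at chr11:101769742-101785371, Etv5 at chr16:22381309-22439719 and Spred1 at chr2:117121374-117182279. Spry4 is on chromosome 18. UMIs were counted over whole genes, and 3′ libraries read mainly their ends.

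FGF ligands bind receptor tyrosine kinases on the cell surface, and the signal runs through Ras to the kinases MEK and ERK. ERK activity switches on the ETS-family transcription factors Etv4 and Etv5, and it also switches on inhibitors of its own pathway. Sprouty proteins (Spry1, Spry2, Spry4) and Spred1 act on the path from receptor to Ras and Raf, and Dusp6 is a phosphatase that removes the activating phosphates from ERK. The levels of these genes are widely read as a sign of recent FGF signalling. In the early embryo FGF signalling is known for its part in gastrulation, in the growth of the tail bud, and in patterning of the brain and pharynx.

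Of the 7 members with a RefSeq promoter entry, Dusp6, Spry1 and Spry2 are those whose RefSeq start site coincides with the start of the gene annotation. The 250 bases before each start are shown because Dusp6 is the member described most closely below, and the Sprouty genes stand beside it for comparison. Capitals mark CGGAA on either strand (TTCCG on the other), which is the GGAA core bound by ETS factors with a C before it. GGAA without that C is not marked. The Dusp6 stretch lies on the plus strand of GRCm38.p6 at chr10:99262981-99263230, Spry1 on the plus strand at chr3:37639697-37639946, and Spry2 on the minus strand at chr14:105896820-105897069.
Dusp6: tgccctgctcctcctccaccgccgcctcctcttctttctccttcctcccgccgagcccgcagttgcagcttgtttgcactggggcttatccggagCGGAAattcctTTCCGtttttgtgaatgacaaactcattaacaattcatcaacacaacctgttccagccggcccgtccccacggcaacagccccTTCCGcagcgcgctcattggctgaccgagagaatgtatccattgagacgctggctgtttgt
Spry1: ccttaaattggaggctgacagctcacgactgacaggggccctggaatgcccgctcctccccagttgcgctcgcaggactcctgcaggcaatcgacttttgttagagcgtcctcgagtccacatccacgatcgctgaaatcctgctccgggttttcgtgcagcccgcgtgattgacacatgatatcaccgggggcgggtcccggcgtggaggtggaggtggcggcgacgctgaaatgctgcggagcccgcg
Spry2: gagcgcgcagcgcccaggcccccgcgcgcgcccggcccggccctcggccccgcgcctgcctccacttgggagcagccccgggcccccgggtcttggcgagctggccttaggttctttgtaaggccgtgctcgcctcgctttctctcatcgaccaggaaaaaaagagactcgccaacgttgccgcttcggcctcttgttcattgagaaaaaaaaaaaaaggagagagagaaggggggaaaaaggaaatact
The Dusp6 stretch held 3 matches to CGGAA and the Spry1 and Spry2 stretches none, though both Sprouty stretches hold GGAA without the C. Of 32851 RefSeq promoter stretches of the same length, 25.2% held at least 1 match and 2.12% held 3 or more. CpG dinucleotides, the sites of DNA methylation, numbered 16, 23 and 23 in the Dusp6, Spry1 and Spry2 stretches, against a median of 6 over all stretches. A match in these letters is a description of the sequence and not a binding site.

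To ask where the members were expressed, cells were clustered without using them and each cluster was named from fixed marker genes, with "-like" added. UMIs were summed per cluster class and library and given as CPM. In 29 classes both WT host libraries had at least 10 cells at E8.5. Erythroid-like cells, primitive red blood cells that should use little of this pathway, served as a low reference. Their mean was 5.51 CPM for Fgfr1, 3.91 CPM for Dusp6 and 1.69 CPM for Etv4. They were the lowest class for Fgfr1, Spry2 and Spred1 only. Fgfr2 was at 2.99 CPM in them and at 0.523 CPM in blood progenitor-like cells. Whether these levels are background was not tested.

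**Figure D1:**
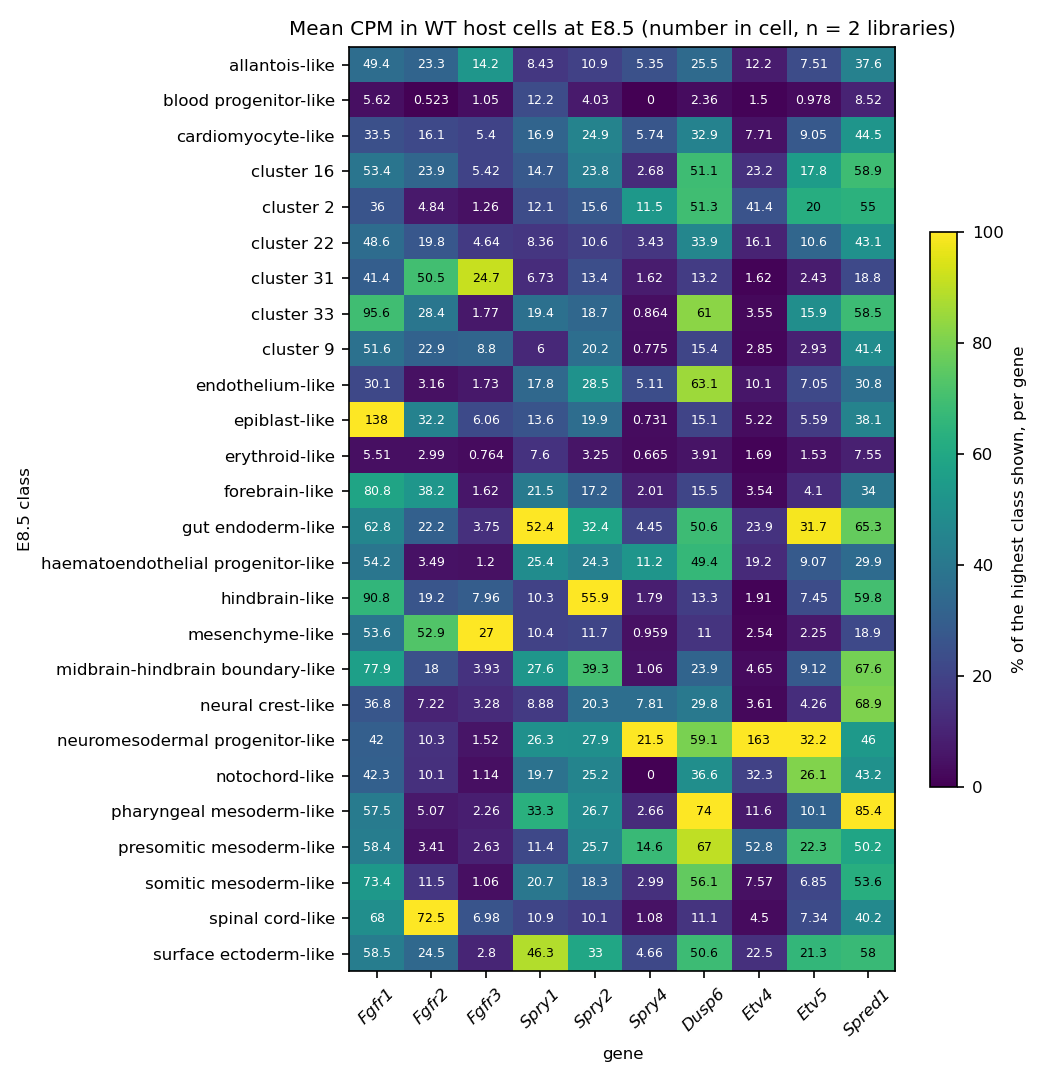
Mean level of each gene (columns) in the 26 E8.5 classes tested (rows) in WT host cells, as CPM printed in each cell of the grid, with colour giving the percentage of the highest class shown for that gene. Etv4 stood at 163 CPM in neuromesodermal progenitor-like cells, and the erythroid-like and blood progenitor-like classes were low for most genes.

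The receptors had different places. Fgfr1, the main receptor of mesoderm and early neural tissue, was broad, with a median of 51.6 CPM over the 29 classes. It was highest in epiblast-like cells, at 132 and 144 CPM in the WT host libraries, above the range of the next class, cluster 33, at 69.2 and 122 CPM. Fgfr2, known from epithelia and limb and lung outgrowth, was highest in spinal cord-like cells, at 66.1 and 78.8 CPM, and its libraries did not overlap with those of mesenchyme-like cells, at 48.9 and 56.8 CPM. Fgfr3, known as a brake on bone growth, was at 23.8 and 30.2 CPM in mesenchyme-like cells, which overlapped with cluster 31 at 12.9 and 36.5 CPM. Fgfr3 had a median of 3.28 CPM over classes and an erythroid-like level of 0.764 CPM.

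Of the ETS factors, Etv4 had its highest level at the posterior end and Etv5 was more widely spread. Etv4 reached 149 and 177 CPM in neuromesodermal progenitor-like cells, the bipotent cells of the tail bud that give spinal cord and somites. That was 21.1 times its median over classes. Of the 29 classes, presomitic mesoderm-like cells came next at 51.8 and 53.7 CPM, separate from the class above and the class below. Etv5 was spread over visceral endoderm-like cells (33.2 and 35.6 CPM), neuromesodermal progenitor-like cells (32.1 and 32.3 CPM) and gut endoderm-like cells (29.3 and 34.0 CPM). The first of these lay above the second, and the second overlapped with the third. Primordial germ cell-like cells were not ranked, since the WT host libraries held 15 and 5 of them. There Etv5 was at 70.9 and 47.6 CPM, on 15 and 4 UMIs, and Etv4 at 66.2 and 83.3 CPM, on 14 and 7 UMIs. Etv5 was at 51.2, 37.3 and 49.4 CPM in that class in Tet-TKO libraries 1 to 3.

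Among the inhibitors, Spry4 also had its highest mean in neuromesodermal progenitor-like cells, at 20.8 and 22.2 CPM, separate from presomitic mesoderm-like cells at 11.5 and 17.7 CPM. Spry1 was highest in gut endoderm-like cells (49.3 and 55.4 CPM), overlapping with surface ectoderm-like cells (43.2 and 49.5 CPM). Spry2 was highest in hindbrain-like cells (44.2 and 67.6 CPM), followed without overlap by midbrain-hindbrain boundary-like cells (38.0 and 40.5 CPM). Spred1 was highest in pharyngeal mesoderm-like cells, at 79.8 and 91.0 CPM, again without overlap with the next class. Dusp6 was high in pharyngeal mesoderm-like cells (72.7 and 75.2 CPM), presomitic mesoderm-like cells (55.6 and 78.3 CPM) and endothelium-like cells (57.9 and 68.4 CPM). Each of these overlapped with the next in order, while the first and the third did not overlap. The order of neighbouring classes was mostly unresolved: for Spry1, 2 of 28 neighbouring pairs were separated, and for Fgfr2, the most, 11 of 28.

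Likeness of pattern was measured as Pearson's r of log2(CPM + 1) over 20 named classes of the WT host cells, which share libraries and depth. Spry2 and Spred1 were the most alike of the members (r = 0.856), then Spry4 and Etv4 (r = 0.838), Fgfr1 and Spred1 (r = 0.83) and Etv4 and Etv5 (r = 0.822). Among all genes with a mean of at least 10 CPM, those most like Etv4 were T (r = 0.857) and Cdx4 (r = 0.842), both tail bud transcription factors. Those most like Dusp6 were Laptm4b (r = 0.859) and Il17rd (r = 0.829), the second another inhibitor of FGF signalling. Fgfr1 was most like Tspan3 (r = 0.959) and Tead2 (r = 0.956), Fgfr2 most like Ddr1 (r = 0.832) and Nav2 (r = 0.819), and Fgfr3 most like Efnb1 (r = 0.839) and Snx30 (r = 0.811). For Spry1 they were Tmed4 (r = 0.731) and Tle1 (r = 0.721), for Spry2 Zfp157 (r = 0.871) and Zfp532 (r = 0.859), and for Spry4 Etv4 and Ypel3 (r = 0.785). For Etv5 they were Etv4 and Laptm4b (r = 0.822), and for Spred1 Ier5l (r = 0.925) and Zfp532 (r = 0.918).

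The design next asks whether the members differed between Tet-TKO and WT host cells of the same class at E8.5. Of the 260 pairs of a member and a class, 220 passed the filter on low counts and were tested with edgeR's quasi-likelihood test. None was called in either direction at a Benjamini-Hochberg adjusted p under 0.01 with a log2 fold change of at least 1. Over all genes, 0.213% of gene and class pairs were called higher and 0.317% lower in Tet-TKO. At an unadjusted p under 0.05, 22 member pairs were higher, against 5.56% of all gene pairs, and 14 were lower, against 5.61%. DESeq2 called 1 member pair lower and none higher. For 124 of the 220 pairs the 95% interval of the log2 fold change lay within 1 in both directions, and for the others a 2-fold difference lay within the interval. Spry4 was the least covered, with 12 of 26 classes tested, and Fgfr3 had 16.

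**Figure D2:**
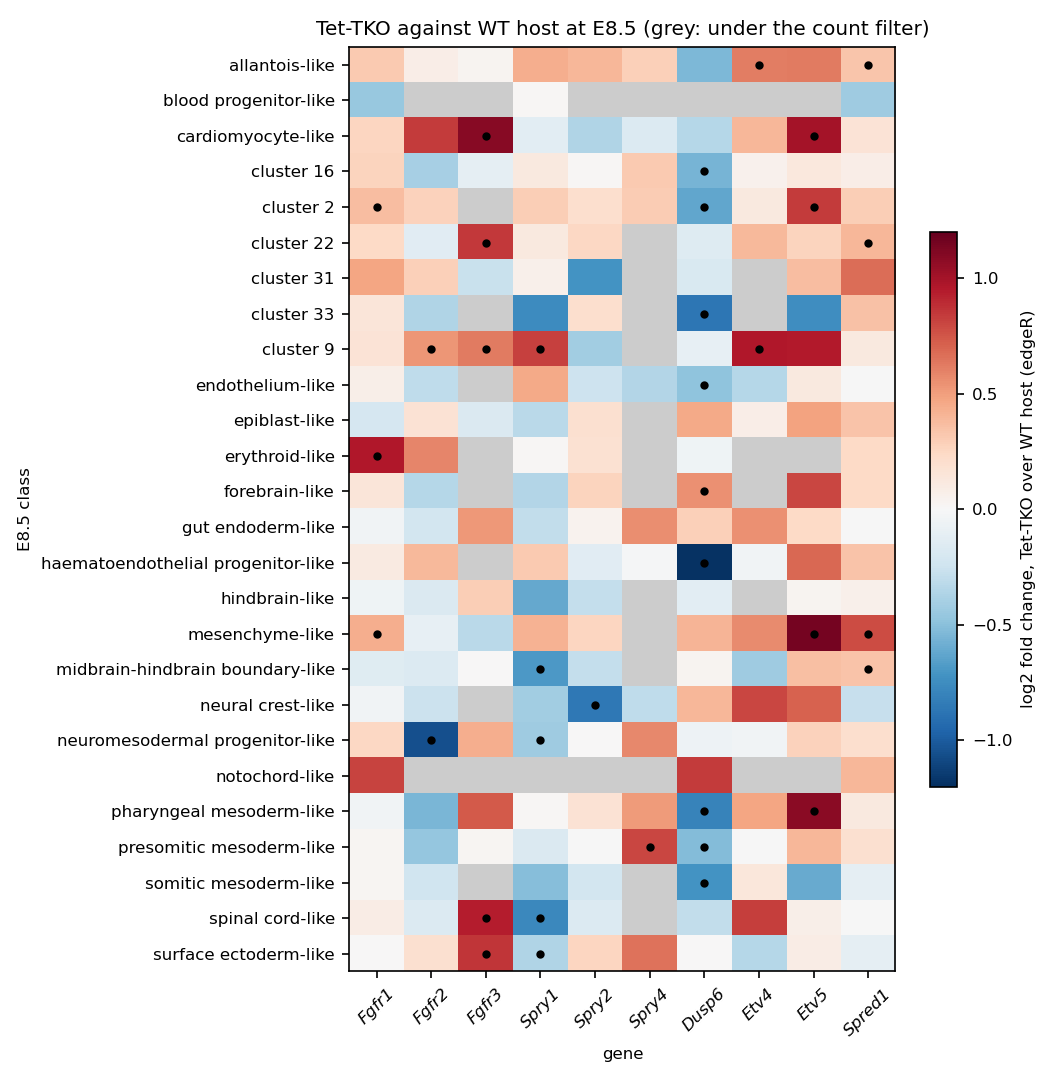
Log2 fold change of Tet-TKO over WT host (colour, edgeR) for each gene (columns) in each of the 26 E8.5 classes (rows), with grey where the gene did not pass the count filter and a dot where the unadjusted p was under 0.05. Dusp6 has 8 dots on blue and 1 on red, and no dot stands for a call at the adjusted threshold.

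Dusp6 was the member with the lowest adjusted p. In haematoendothelial progenitor-like cells, which give rise to blood and endothelium, it was at 28.3, 20.1, 19.4 and 16.7 CPM in the 4 Tet-TKO libraries and at 55.9 and 42.9 CPM in the 2 WT host libraries. Every Tet-TKO library lay below both WT host libraries. The log2 fold change was -1.19 (SE 0.241, n = 4 and 2), with an edgeR adjusted p of 0.0407, which misses the threshold of 0.01. For Dusp6 in haematoendothelial progenitor-like cells the adjusted p was 0.00324 with DESeq2, and 0.00888 by edgeR without Tet-TKO library 1. It was 0.55 without WT host library 1 (log2 fold change -0.96) and 0.168 without WT host library 2 (-1.38). With 1 WT host library left, the spread was estimated from the Tet-TKO libraries alone, here and below, and the lone library was assumed to vary like them.

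In pharyngeal mesoderm-like cells, which contribute to head muscle and to the outflow tract of the heart, Dusp6 was at 44.6, 34.4, 49.4 and 38.3 CPM in Tet-TKO and at 75.2 and 72.7 CPM in WT host libraries. The groups did not overlap, and the log2 fold change was -0.80 (SE 0.157, edgeR adjusted p = 0.0402). At an adjusted p under 0.05 with no minimum fold these were the 2 member pairs called, both lower, against 0.833% of all gene and class pairs called lower and 0.517% called higher. Within haematoendothelial progenitor-like cells that share was 0.948% of genes, and within pharyngeal mesoderm-like cells 0.616%. For Dusp6 in pharyngeal mesoderm-like cells the adjusted p was 0.5 without WT host library 1 (log2 fold change -0.75) and 0.411 without WT host library 2 (-0.85). With the like Tet-TKO libraries summed, 1 with 2 and 3 with 4, it was 0.0748, and for Dusp6 in haematoendothelial progenitor-like cells it was 0.0439.

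Other classes had Dusp6 lower in every Tet-TKO library without passing an adjusted threshold. In cluster 33, which met no name, Dusp6 was at 39.7, 31.7, 29.8 and 32.5 CPM against 52.8 and 69.2 CPM. In somitic mesoderm-like cells, which form the segments of the trunk, it was at 24.1, 33.8, 36.3 and 41.3 CPM against 49.0 and 63.2 CPM. In cluster 2, also unnamed, it was at 30.3, 32.3, 30.3 and 39.2 CPM against 43.3 and 59.2 CPM. Their log2 fold changes were -0.87, -0.71 and -0.62, with adjusted p-values of 0.255, 0.229 and 0.195 by edgeR. Over its 25 tested classes Dusp6 had 8 with an unadjusted p under 0.05 in the lower direction and 1 in the higher. Of all gene and class pairs, 5.61% were lower and 5.56% higher at that p. Every Tet-TKO library lay below both WT host libraries in 6 of the 25 classes, and in 13.1% of all gene and class pairs. The classes share the same libraries, so for Dusp6 too they are not separate observations.

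Of the 25 tested classes, Dusp6 was below 0 in 17 and above 0 in 8, where 51.7% of all gene and class pairs were above 0. The highest log2 fold change was 0.84 in notochord-like cells, on 11 to 31 UMIs in each of 3 Tet-TKO libraries (edgeR adjusted p = 0.654). Forebrain-like cells were the 1 class higher at an unadjusted p under 0.05. There Dusp6 was at 17.2, 20.3, 29.1 and 22.3 CPM in Tet-TKO and at 14.1 and 16.9 CPM in WT host libraries, with every Tet-TKO library above both. The log2 fold change was 0.55 (SE 0.217, edgeR adjusted p = 0.362). A joint edgeR fit over 23 classes tested whether the genotype difference varied between classes, and Dusp6 was the 1 member called at an adjusted p under 0.01 (F = 3.06, adjusted p = 0.00111), where 11.1% of the 14851 genes were called. The adjusted p was 0.013 for Spry1, 0.0169 for Fgfr2 and 0.0197 for Fgfr1. The call for Dusp6 ended without Tet-TKO library 3 (adjusted p = 0.0179) and without WT host libraries 1 or 2 (adjusted p = 0.19 and 0.0437).

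**Figure D3:**
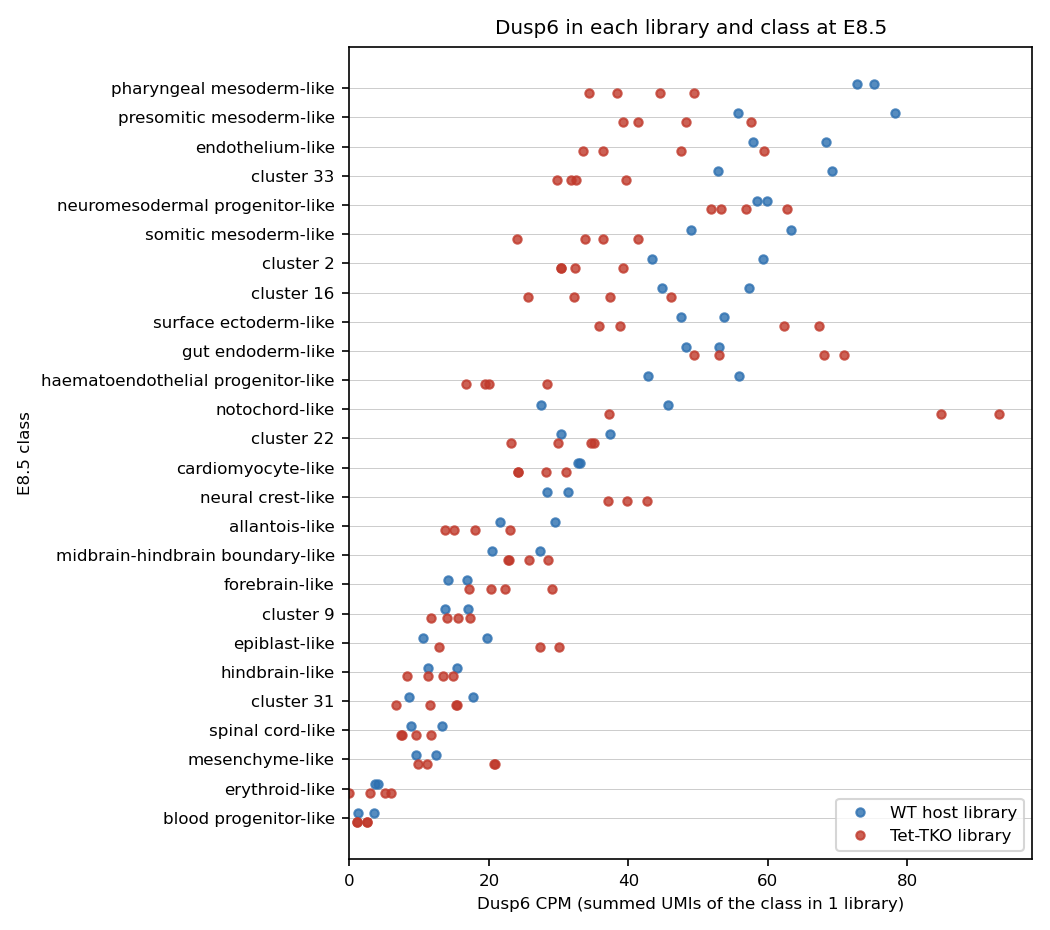
Dusp6 level (horizontal axis, CPM) in each library (points, red for Tet-TKO and blue for WT host) in the 26 E8.5 classes (vertical axis, ordered by the WT host mean). The red points of haematoendothelial progenitor-like cells lie at 16.7 to 28.3 CPM and the blue points at 42.9 and 55.9 CPM, while in forebrain-like cells red lies to the right of blue.

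The classes were checked for other cells. All 7 haematoendothelial progenitor markers were over 2-fold above the level of all cells in both genotypes, and 7 of 8 pharyngeal mesoderm markers were. Within the haematoendothelial class the means of Etv2 (513 against 802 CPM), Tal1 (83.1 against 137 CPM), Lmo2, Fli1, Sox7 and Tek were lower in Tet-TKO. That of Kdr was higher (495 against 412 CPM). Within haematoendothelial progenitor-like cells, the summed level of 9 endothelium markers was 720.5 to 977.8 CPM in Tet-TKO and 1147 and 1352 CPM in WT host libraries, with no marker at 0. The 7 blood progenitor markers summed to 23.0 to 62.9 CPM against 59.6 and 71.9 CPM, with 1 to 3 markers at 0 in each Tet-TKO library and none in WT host libraries. The 9 erythroid markers summed to 7.97 to 107.3 CPM in Tet-TKO and to 525.6 and 1448 CPM in WT host libraries of that class. The same gap was seen in the other classes examined for it, with 6.29 to 52.5 against 600 and 1737 CPM in pharyngeal mesoderm-like cells and 8.06 to 46.3 against 579.7 and 2080 CPM in somitic mesoderm-like cells, and likewise in clusters 2 and 33. Within pharyngeal mesoderm-like cells the 8 cardiomyocyte markers summed to 48.1 to 80.1 CPM against 155.4 and 87.7 CPM, with 1 marker at 0 in each Tet-TKO library. Their part in the Dusp6 values was not tested.

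Etv5 leaned higher, with 21 of 23 tested classes above 0 and a median log2 fold change of 0.37, where 51.7% of all gene and class pairs were above 0. The classes share the same libraries, so they are not separate observations. In several classes libraries 3 and 4 were the high ones. These 2 had a median of 40404 and 68931 UMIs per cell, against 12178 to 18774 in the other E8.5 libraries. The part of depth in the Etv5 values was not tested. In neuromesodermal progenitor-like cells Etv5 was at 32.8, 29.8, 47.4 and 46.7 CPM in Tet-TKO and at 32.3 and 32.1 CPM in WT host libraries, and in surface ectoderm-like cells libraries 1 and 2 (11.6 and 12.8 CPM) lay below and libraries 3 and 4 (29.4 and 39.3 CPM) above the WT host libraries (20.5 and 22.0 CPM). Surface ectoderm-like cells came from clusters 15, 24 and 28, and cluster 28 held 239, 214, 5 and 7 Tet-TKO and 115 and 92 WT host cells, so few cells of libraries 3 and 4. Its part in the surface ectoderm-like values was not tested. Without erythroid-like and extraembryonic ectoderm-like cells, whole libraries had Etv5 at 13.6, 11.2, 18.8 and 21.8 CPM against 16.2 and 13.1 CPM. Visceral endoderm-like cells, the highest ranked class for Etv5 in WT host cells, were still included. They numbered 7, 2, 8 and 4 in Tet-TKO and 538 and 224 in WT host libraries. In the WT host libraries they gave 414 of 1635 and 105 of 1143 Etv5 UMIs. Their part in the Etv5 values was not tested. In cardiomyocyte-like cells Etv5 was at 15.7, 20.7, 19.0 and 20.3 CPM in Tet-TKO and at 9.75 and 8.35 CPM in WT host libraries. The groups did not overlap, and the log2 fold change was 1.00 (SE 0.227, edgeR adjusted p = 0.0608). Markers of that class also had other means in Tet-TKO. Actc1 (2940 against 6250 CPM), Myl7 (5150 against 8810 CPM), Tnni1 (956 against 1720 CPM), Myl4, Ttn and Myh6 were lower. Tnnt2 (3160 against 3080 CPM) and Nkx2-5 (243 against 239 CPM) were close. Their part in the cardiomyocyte-like values was not tested. In pharyngeal mesoderm-like cells Etv5 was at 17.6, 10.8, 25.1 and 35.8 CPM against 8.87 and 11.4 CPM, and 1 Tet-TKO library lay inside the WT host range. Its log2 fold change there was 1.09 (SE 0.393, edgeR adjusted p = 0.387), in the class where Dusp6 was lower. Etv4 in neuromesodermal progenitor-like cells was at 209.2, 177.4, 116.9 and 119.9 CPM against 176.8 and 148.7 CPM, a log2 fold change of -0.038 with an interval from -0.65 to 0.57.

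Among the Sprouty genes, Spry1 in midbrain-hindbrain boundary-like cells was at 16.1, 14.9, 17.9 and 20.4 CPM in Tet-TKO and at 25.6 and 29.6 CPM in WT host libraries, without overlap. The log2 fold change was -0.69 (SE 0.185, edgeR adjusted p = 0.124). Spry1 in spinal cord-like cells was at 6.75, 6.52, 5.64 and 6.47 CPM against 11.7 and 10.2 CPM, with a log2 fold change of -0.77 (edgeR adjusted p = 0.246). Its highest log2 fold change was in cluster 9, where it was at 9.12, 8.54, 14.3 and 10.8 CPM against 6.07 and 5.93 CPM (0.82, edgeR adjusted p = 0.316), and over its 25 tested classes 12 were above 0 and 13 below. Of the 7 class markers in midbrain-hindbrain boundary-like cells, the means of Wnt1 (15.6 against 87.5 CPM), Pax8 (7.07 against 18.6 CPM) and Pax5 (43 against 44.9 CPM) were also lower in Tet-TKO. Those of En2 (62.2 against 34.9 CPM), Cnpy1 (7.36 against 2.48 CPM) and Pax2 (59 against 53.6 CPM) were higher, and En1 was at 290 CPM in both. Spry4 in presomitic mesoderm-like cells was at 16.3, 20.6, 34.8 and 30.3 CPM against 11.5 and 17.7 CPM, and libraries 3 and 4 were the high ones. Spry2 had a log2 fold change between -0.86 and 0.40 in its 24 tested classes, and the lowest adjusted p was 0.48.

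Of the receptors, Fgfr2 in neuromesodermal progenitor-like cells was at 4.67, 3.58, 5.10 and 6.72 CPM in Tet-TKO and at 9.87 and 10.8 CPM in WT host libraries. Every Tet-TKO library was lower, with a log2 fold change of -1.05 (SE 0.266, edgeR adjusted p = 0.119). The highest log2 fold change of Fgfr2 was 0.84 in cardiomyocyte-like cells, at 25.5, 11.99, 31.7 and 47.7 CPM against 13.6 and 18.7 CPM (edgeR adjusted p = 0.418), where 1 Tet-TKO library lay below both WT host libraries. Of its 24 tested classes 9 were above 0 and 15 below, and at an unadjusted p under 0.05 there was 1 in each direction. Fgfr3 in cardiomyocyte-like cells was at 8.04, 10.9, 10.97 and 17.2 CPM against 4.43 and 6.36 CPM, a log2 fold change of 1.09 (SE 0.348, edgeR adjusted p = 0.209). Fgfr1 was the best covered, with the interval inside 1 in 23 of 26 classes. Log2 fold changes were above 0 in 19 of 26 classes for Fgfr1, 12 of 16 for Fgfr3 and 19 of 26 for Spred1. Over all gene and class pairs 51.7% were above 0. At an unadjusted edgeR p under 0.05, 3, 5 and 4 of these classes were higher and 0 lower, against 5.56% of all pairs higher. Here too the classes share the same libraries. Spred1 in mesenchyme-like cells was at 34.4, 27.4, 37.3 and 36.2 CPM against 23.5 and 14.2 CPM, a log2 fold change of 0.78 (SE 0.235, edgeR adjusted p = 0.119). Mesenchyme-like cells came from 2 clusters, and the genotypes lay mostly in different ones. Cluster 13 held 350, 445, 128 and 47 Tet-TKO and 68 and 79 WT host cells, and cluster 27 held 107, 221, 37 and 12 Tet-TKO and 155 and 213 WT host cells. The part of this in the mesenchyme-like values was not tested. Across the 220 pairs, all Tet-TKO libraries lay above both WT host libraries in 29 pairs and below in 16, and over all gene and class pairs 10.3% lay above and 13.1% below.

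Summed over all kept cells of a library, 3 members were higher in Tet-TKO at an edgeR adjusted p under 0.05 with no minimum fold, where 3.73% of genes were higher and 6.73% lower, and none passed the main threshold, where 0.588% were called higher and 2.06% lower. Fgfr1 was at 55.5, 50.3, 64.7 and 64.6 CPM against 42.9 and 35.8 CPM (log2 fold change 0.49, adjusted p = 0.0348). Spred1 was at 46.5, 43.1, 54.4 and 55.4 CPM against 34.8 and 35.3 CPM (0.42, adjusted p = 0.0361). Spry4 was at 6.10, 6.02, 7.79 and 9.16 CPM against 4.25 and 3.38 CPM (0.83, adjusted p = 0.0318). With 1 library left out the adjusted p was 0.0446 to 0.263 for Fgfr1 in all kept cells, 0.0463 to 0.264 for Spred1 in all kept cells and 0.047 to 0.216 for Spry4 in all kept cells. With the like Tet-TKO libraries summed it was 0.162, 0.183 and 0.136 for Fgfr1, Spred1 and Spry4. In whole libraries, a larger share of cells that express a gene and more RNA per cell cannot be told apart.

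Erythroid-like cells, where these genes were low, made up 0.554% to 1.52% of Tet-TKO libraries and 16.7% and 25.6% of WT host libraries. Without erythroid-like and extraembryonic ectoderm-like cells the log2 fold changes were 0.23 for Fgfr1, 0.18 for Spred1 and 0.60 for Spry4, with adjusted p-values of 0.233, 0.349 and 0.105. For Dusp6 in all kept cells the log2 fold change was -0.048 (adjusted p = 0.777), and it was -0.31 (adjusted p = 0.0966) without those cells. Visceral endoderm-like cells were left in, at 7, 2, 8 and 4 Tet-TKO and 538 and 224 WT host cells. Their part in these values was not tested.

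**Figure D4:**
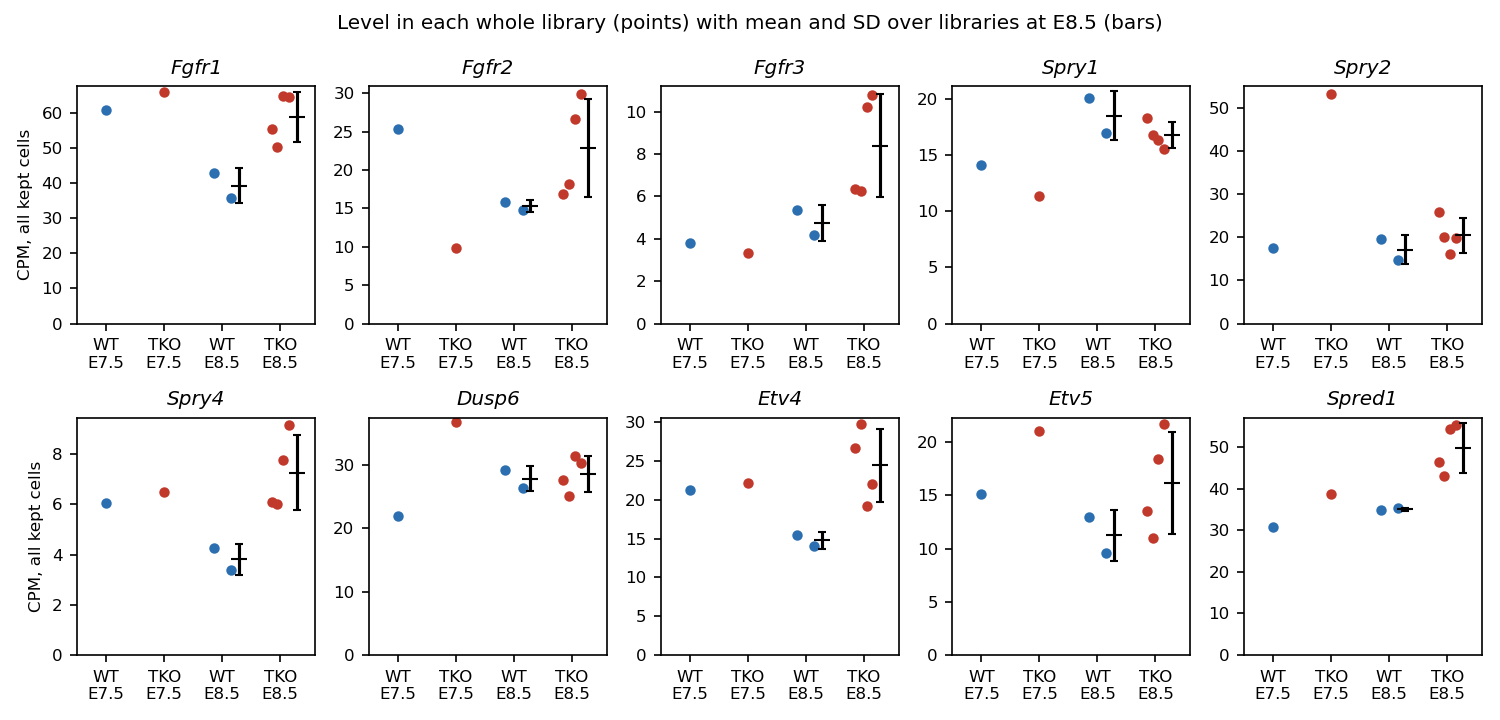
Level of each gene (CPM, vertical axes from 0) in each whole library (points, blue for WT host and red for Tet-TKO) at both stages, with bars for the mean and SD over libraries at E8.5. The E7.5 groups have 1 library each, where Spry2 stood at 53.0 CPM in Tet-TKO and 17.5 CPM in WT host.

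At E7.5, during gastrulation, each genotype had 1 library, so no test was possible and intervals cover counting error only. Spry2 was the 1 member at least 2-fold higher in whole libraries, where 5.09% of genes were. Over all kept cells it was at 53.0 CPM in Tet-TKO and 17.5 CPM in WT host cells, a ratio of 3.03. It was higher in Tet-TKO in all 17 classes with at least 50 cells in each library and 20 UMIs together, and the counting interval lay above 0 in 12 of them. All classes came from the same 2 libraries, so they are not separate observations. The share of all genes with such a pattern was not counted. The 50-cell rule does not leave out cluster 15 (333 Tet-TKO and 68 WT host cells), a cluster of few UMIs per cell described below.

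In epiblast-like cells, the pluripotent tissue that enters the primitive streak, Spry2 was at 75.3 against 40.3 CPM, and in primitive streak-like cells at 84.2 against 47.6 CPM. In surface ectoderm-like cells it was at 49.3 against 16.9 CPM, past 2-fold. It also passed 2-fold in mesenchyme-like cells (30.4 against 11.4 CPM) and in allantois-like cells (24.6 against 7.28 CPM). In nascent mesoderm-like cells (32.3 against 31.3 CPM) and cardiomyocyte-like cells (17.1 against 16.9 CPM) the 2 libraries were close.

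Part of the Tet-TKO library consisted of cells with few UMIs. Clusters 1, 15, 17 and 30 held 28.2% of its cells, at a median of 5904.5 UMIs against 23572.5 in its other cells, and 2.03% of the WT host cells. Spry2 was at 131.3 CPM in those clusters in Tet-TKO and was among the leading genes of clusters 1 and 17. In WT host cells of those clusters it was at 41.8 CPM, on 54 UMIs. Without clusters 1, 15, 17 and 30 the whole-library ratio was 2.52, from 43.3 CPM in Tet-TKO and 17.2 CPM in WT host cells.

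In the 154 pairs of a member and an E7.5 class with enough counts, 11 were at least 2-fold higher in Tet-TKO and 7 at least 2-fold lower, where 3.47% of all gene and class pairs were higher and 4.74% lower. The E7.5 name surface ectoderm-like rested on 5 of 9 markers raised, and at clustering resolution 1 the cluster with surface ectoderm first met no name. Surface ectoderm-like cells held 4 of the 11 higher pairs. Besides Spry2 these were Dusp6 at 33.3 against 10.1 CPM, Etv4 at 14.1 against 6.51 CPM and Etv5 at 18.5 against 4.74 CPM. Fgfr2 was lower there, at 6.80 against 19.3 CPM, as was Fgfr3 at 4.37 against 9.18 CPM. Fgfr3 accounted for 5 of the 7 lower pairs, each on 3 to 39 UMIs a library. In whole libraries Fgfr2 was at 9.85 CPM in Tet-TKO and 25.3 CPM in WT host cells, the 1 member at least 2-fold lower, where 12.1% of genes were. Erythroid-like and extraembryonic ectoderm-like cells, the second a trophoblast lineage, were scarce among Tet-TKO cells, and without both types 5496 Tet-TKO and 5194 WT host cells remained. In those cells Fgfr2 was at 9.76 against 13.5 CPM and Spry2 at 53.1 against 20.8 CPM. Still among them were 3 Tet-TKO and 318 WT host visceral endoderm-like cells, and 3 and 343 blood progenitor-like cells. The part of these 2 classes was not tested.

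**Figure D5:**
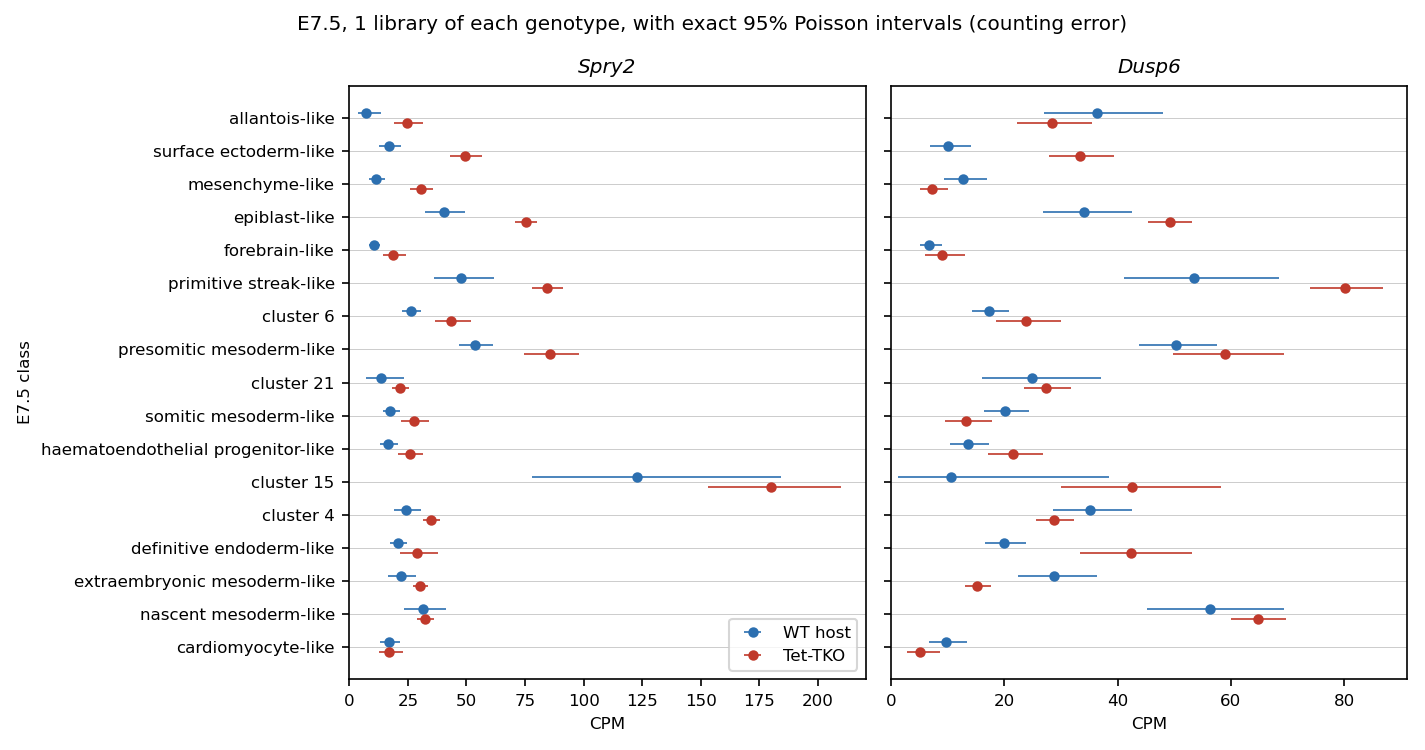
Spry2 (left) and Dusp6 (right) level (CPM, horizontal axes from 0) in 17 E7.5 classes (vertical axis) in the Tet-TKO library (red) and the WT host library (blue), with exact 95% Poisson intervals for counting error. Spry2 is to the right in Tet-TKO in every class, by the smallest margin in cardiomyocyte-like cells, while Dusp6 is to the left in some classes and to the right in others.

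The levels at the 2 stages are set side by side without a test, for members that differed by at least 2-fold in the class named. A class name shared by the 2 stages need not mean the same cells. At clustering resolution 1 no E8.5 cluster was named epiblast-like, and epiblast was the second class of the forebrain-like cluster. Its part in these values was not tested. In epiblast-like cells of the WT host, Fgfr1 was at 49.6 CPM at E7.5 and at a mean of 138 CPM at E8.5, and Fgfr2 at 2.66 and 32.2 CPM. In the class of that name Etv5 was at 42.5 and 5.59 CPM, Etv4 at 18.6 and 5.22 CPM and Spry4 at 7.97 and 0.731 CPM. The Spry4 mean came from 1.46 CPM (4 UMIs) in 1 library and 0 in the other. Tet-TKO epiblast-like cells had Fgfr1 at 52.3 CPM at E7.5 and a mean of 118 CPM at E8.5. Etv5 in them was at 42.0 CPM at E7.5 and at 7.87, 5.77 and 21.5 CPM at E8.5 in libraries 1 to 3, the last on 16 cells and 15 UMIs. Surface ectoderm-like cells of the WT host had Dusp6 at 10.1 CPM at E7.5 and 50.6 CPM at E8.5, and Spry1 at 12.1 and 46.3 CPM. Spry2 in whole Tet-TKO libraries was at 53.0 CPM at E7.5 and at 16.1 to 25.8 CPM at E8.5.

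The rest of the pathway was read from lists of other receptors and adaptors, the Ras-MAPK cascade, other feedback targets and FGF ligands. Of 255, 369, 355 and 143 gene and class pairs tested in these lists, 1 passed the main threshold. It was Flrt3, a membrane protein that promotes FGF signalling, in mesenchyme-like cells, at 23.6, 33.9, 34.4 and 36.0 CPM in Tet-TKO and 65.0 and 103 CPM in WT host libraries. Its log2 fold change was -1.45 (SE 0.198, edgeR adjusted p = 0.00577), and the call was lost without Tet-TKO library 3 or either WT host library, at adjusted p-values of 0.0196 to 0.123. Tet-TKO mesenchyme-like cells lay mostly in cluster 13 and WT host ones in cluster 27, and the class's own markers differed too. Col3a1 was higher in Tet-TKO, at a mean of 370 against 121 CPM. Tagln (293 against 1040 CPM), Acta2 (980 against 2230 CPM) and Col1a1 (85.8 against 300 CPM) were lower, as were Hand1, Postn, Ahnak and Bmp4. The next genes by mean absolute change, with no call, were Fgf14, Hspa1a, Fgf4, Hspa1b and Fgf5. The mean rests on 1 tested class for Fgf14, 3 for Fgf4 and 4 for Fgf5. Hspa1a and Hspa1b are heat shock genes from a list of dissociation response genes. The log2 fold change ran from 0.38 to 6.57 over 21 classes for Hspa1a and from -0.14 to 6.52 over 20 classes for Hspa1b, above 0 in every tested class for Hspa1a. The 10 genes of that list together were at 482.5 to 630 CPM in Tet-TKO and at 553.1 and 399 CPM in WT host whole libraries at E8.5. In haematoendothelial progenitor-like cells they were at 889.7 to 1059 against 1075 and 934.7 CPM. Of 225 gene and class pairs of the list, 0 were called. The part of these genes in the members' values was not tested.

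At an adjusted p under 0.05 with no minimum fold, FGF ligands gave 1 class pair higher and 3 lower, and other feedback targets also gave 1 higher and 3 lower. They are named here after their values were seen. Dusp4, a phosphatase related to Dusp6, was at 7.81, 9.25, 8.16 and 11.7 CPM in Tet-TKO and at 23.3 and 19.6 CPM in WT host midbrain-hindbrain boundary-like cells (log2 fold change -1.2, edgeR adjusted p = 0.03). Dusp9, another of these phosphatases, was at 76.1, 73.0, 63.2 and 76.0 CPM against 122.4 and 130 CPM in gut endoderm-like cells (-0.75, edgeR adjusted p = 0.022). Ccnd1, a cell cycle regulator, had a log2 fold change of -0.99 in neural crest-like cells (edgeR adjusted p = 0.0156) and 0.69 in mesenchyme-like cells (edgeR adjusted p = 0.027). In whole libraries the co-receptor Klb was at 0.0585, 0.057, 0.115 and 0.123 CPM against 2.18 and 0.789 CPM (-4.20, edgeR adjusted p = 0.00389), and with the like Tet-TKO libraries summed the adjusted p was 0.0396 for Klb in all kept cells.

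Of the ligands, Fgf3 differed in both directions. In surface ectoderm-like cells Fgf3 was at 2.27, 2.67, 3.90 and 1.66 CPM in Tet-TKO and at 9.65 and 10.7 CPM in WT host libraries (log2 fold change -1.92, edgeR adjusted p = 0.0175). Fgf15 (-1.80, adjusted p = 0.0373) and Fgf4 (-2.64, adjusted p = 0.0172) were lower in the same class, where Dusp6 and Etv5 had adjusted p-values above 0.05 and where cluster 28 held few cells of Tet-TKO libraries 3 and 4. In erythroid-like cells Fgf3 was at 249.2, 149, 80.4 and 178.6 CPM against 25.4 and 7.75 CPM (3.12, adjusted p = 0.0148). Erythroid-like cells also lay in different clusters, since cluster 0 held 0, 6, 7 and 2 Tet-TKO but 588 and 1541 WT host cells, while cluster 7 held 27, 93, 22 and 8 against 626 and 546. Fgf3 was among the leading genes of cluster 23, the blood progenitor-like cells. Fgf8, the main ligand of the tail bud, was at 294.1 CPM in Tet-TKO and 358 CPM in WT host neuromesodermal progenitor-like cells as means, with an adjusted p of 0.555. It had higher values in Tet-TKO in cluster 2, at 207.5, 174.7, 130.7 and 116.3 CPM against 66.4 and 18.2 CPM (1.91, adjusted p = 0.12), and in cluster 22 (1.61, adjusted p = 0.075). The log2 fold change of Fgf8 was 1.14 in forebrain-like cells (adjusted p = 0.125), 0.57 in presomitic mesoderm-like cells (adjusted p = 0.309), 0.85 in endothelium-like cells (adjusted p = 0.19), 2.26 in cluster 16 (adjusted p = 0.433) and 0.53 in whole libraries (adjusted p = 0.138), all by edgeR. In other classes it was below 0, at -0.89 in notochord-like cells (adjusted p = 0.811), -0.66 in cardiomyocyte-like cells (adjusted p = 0.423), -0.61 in surface ectoderm-like cells (adjusted p = 0.494), -0.48 in midbrain-hindbrain boundary-like cells (adjusted p = 0.559) and -0.37 in pharyngeal mesoderm-like cells (adjusted p = 0.748).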

How the data were processed

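Single-cell 3′ RNA libraries of sorted Tet-TKO and WT host cells were analysed. Cell Ranger (software version 3.1.0 in the file headers; the methods name a later version) was used by the authors to align reads to mm10, and the deposited values are UMI counts without normalization. Members and gene lists were chosen with earlier results of these data known. Cells with at least 1500 UMIs, at most 30% mitochondrial and 35% ribosomal UMIs were kept, as the methods state. The 2500 most variable genes, without members or listed genes, were reduced to 50 principal components, matched across libraries through mutual nearest neighbours (20 per cell) and clustered with leidenalg 0.10.2 at resolution 2. Doublets (Scrublet in scanpy 1.11.5) were removed only as an alternative. Counts were summed per class and library of at least 10 cells and tested with edgeR 4.0.16 (TMM, filterByExpr, glmQLFit, glmQLFTest) in R 4.3.3, or DESeq2 1.42.0 as an alternative. The fit across classes took its dispersion inside glmQLFit. Epiblast-like, neural crest-like and notochord-like cells had 3 Tet-TKO libraries. The edgeR and DESeq2 fits were run on simulated counts of independent libraries with the same dispersion for every gene. That check does not cover the unlike pairs of Tet-TKO libraries. E7.5 intervals are exact, at 95%, for counting error only. Named genes were the members, 6 genes of the other lists by calls and then mean change, the 2 most alike per member, members past 2-fold at E7.5 or between stages, and markers.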

Additional observations from a re-analysis of the deposited data

Results flagged for a closer look

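Dusp6 was called in the joint edgeR fit for a difference between Tet-TKO and WT host cells that varies between E8.5 classes, with an adjusted p of 0.00111. The log2 fold change of Dusp6 was -1.19 in haematoendothelial progenitor-like cells and 0.55 in forebrain-like cells, neither past the threshold by class. It was below 0 in 17 of 25 classes, which share the same libraries. By the same test 1 of the 10 members and 11.1% of all genes were called, so the members are near the share of all genes. The call for Dusp6 was lost without Tet-TKO library 3 or either WT host library.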

How the results depend on the processing

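The members' calls by class, 0 higher and 0 lower, moved to 1 higher at clustering resolution 1, to 1 higher and 1 lower with no filter on low counts, to 1 lower with DESeq2, and to 2 lower at an adjusted p under 0.05 with no minimum fold. Leaving out 1 library gave 0 to 1 lower. The other lists, 0 higher and 1 lower, gave 4 and 5 with DESeq2, 3 and 3 without doublets, 1 and 3 in cells with matching tdTomato, 3 and 3 at resolution 1, 41 and 16 with no filter, and 2 and 7 at an adjusted p under 0.05. They gave 2 lower with at least 30 cells per sum or 3000 UMIs per cell, and 0 to 1 higher and 0 to 2 lower with 1 library left out. In whole libraries 3 members were higher at an adjusted p under 0.05. The fit across classes called 2 members with the size factors of DESeq2 (13.7% of all genes) and 0 to 3 with 1 library left out (3.64% to 11.6% of all genes, the lowest shares without a WT host library). At E7.5 a fold of 1.5 gave 26 higher and 22 lower. Replicate numbers 1 and 2 are shared by both genotypes, and the difference between them correlated at 0.531 over 7490 genes, and both fractions were sorted from pooled embryos, but no source says which libraries share a pool, so the numbers were not taken as pairs. The replicate block on libraries 1 and 2 gave 2 higher and 1 lower among members (Etv4 higher in erythroid-like and spinal cord-like cells, Fgfr2 lower in neuromesodermal progenitor-like cells) and 24 and 23 in the other lists. Etv4 in neuromesodermal progenitor-like cells (log2 fold change -0.038) turned to 0.32 with the block and ran from -0.24 to 0.099 with 1 library left out, Spry2 in hindbrain-like cells (-0.29) ran from -0.61 to 0.028, turning without WT host library 1, and Spry2 in whole libraries (0.19) turned to -0.053 without erythroid-like and extraembryonic ectoderm-like cells. The cause was not tested. Summing the like Tet-TKO libraries, which gave 0 higher and 0 lower members and 0 higher and 1 lower in the other lists (Flrt3 in mesenchyme-like cells, adjusted p = 0.00291), and leaving out the E7.5 clusters of few UMIs, were chosen after seeing the data. Depth limits Spry4 and Fgfr3 most.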
